A study of Homo sapiens with 18 samples.

Results

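The zinc finger genes described here were the 241 protein-coding genes that carry a symbol of ZNF followed only by digits and lie on chromosome 19, together with ZNF736 on chromosome 7. They were taken by name and position (GRCh38, GENCODE annotation) from the 61541 genes listed in each deposited count table. The rule holds no measured value, but it was set, with ZNF736 added by name, when earlier results of these data were known. Chromosome 19 held 240 of them, 83 on the short arm and 157 on the long arm. The letters of a KRAB A box were found in the coding sequence of 199 and not in that of 42, and the genes encoded between 1 and 36 C2H2 zinc fingers with a median of 12.

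Genes of this family arose by tandem duplication, so they stand in clusters of near neighbours of similar sequence. Each encodes a row of C2H2 zinc fingers that reads DNA, in most cases behind a KRAB domain that recruits the corepressor TRIM28, which in turn brings the histone methyltransferase SETDB1, HP1 proteins and deacetylase complexes. Many bind transposable elements, and the clusters themselves are known to carry the repressive mark H3K9me3 over their 3′ exons.

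RNA-seq was performed on A549, an established line of human non-small cell lung cancer (NSCLC) cells, wild type and grown in high-glucose DMEM with 10% FBS. Cells received sodium propionate (SP), a short-chain fatty acid salt, at 5 mM for 3 h, 24 h, 3 days or 12 days, and untreated cells were collected at 24 h and 3 days, with 3 libraries in each of the 6 groups. SP_3H and SP_24H were compared with Control_24H, and SP_3D and SP_12D with Control_3D, so the pairs of contrasts share control libraries. No control was collected at 3 h or 12 days, so the length of culture and SP cannot be told apart in those comparisons. All groups are of a single cell line. The study describes the 3 h and 24 h libraries as biological replicates, and where separate cultures are not stated, as for the other table, P values measure the spread between libraries, which may be technical.

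Libraries held 14187401 to 43765330 reads counted to genes, of which 0.161% to 0.240% fell on these genes. The tables were normalized separately, and the second, with the 3 h and 24 h libraries, was noisier, with a biological coefficient of variation of 0.199 against 0.0996. All 10 markers of A549 and lung epithelium were at or above 1 CPM (counts per 1000000 counted reads) in every group, whereas none of the 5 leukocyte markers was, and the summed endothelial markers stayed at or below 2.88 CPM. The summed fibroblast markers were higher in SP_3D, SP_12D and SP_24H than in their controls, at 15.4 to 16.4 CPM in Control_3D, 63.6 to 74.1 in SP_3D and 36.1 to 65.2 in SP_12D, and at 6.72 to 22.4 in Control_24H and 62.7 to 90.7 in SP_24H, while SP_3H at 19.1 to 39.1 overlapped Control_24H. COL1A1 made up most of that sum (13.3, 61.9 and 37.0 CPM over the groups with the 3-day control), while DCN was at 0 or at most 0.181. Their part in the results was not tested. In bulk RNA, fewer cells of a kind and less RNA per cell cannot be told apart.

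The start regions of 6 of the genes are shown because their transcripts carry the results that follow: ZNF528, ZNF737 and ZNF736 were at or near 0 in Control_3D and rose at 3 and 12 days of SP, as did ZNF91 and ZNF468 from a low level, and ZNF784 fell. Each runs from 250 bases before to 50 bases after the RefSeq start (GRCh38.p14), 5′ to 3′ on the strand of the gene. Capitals mark CCAAT (the CCAAT box), GGGCGG (the GC box read by SP1), CCGGAAG (a core read by ETS factors) or AAGATGGC (read by YY1) on either strand, and overlapping matches are capitalised together.
ZNF528, chr19:52397599-52397898, plus strand: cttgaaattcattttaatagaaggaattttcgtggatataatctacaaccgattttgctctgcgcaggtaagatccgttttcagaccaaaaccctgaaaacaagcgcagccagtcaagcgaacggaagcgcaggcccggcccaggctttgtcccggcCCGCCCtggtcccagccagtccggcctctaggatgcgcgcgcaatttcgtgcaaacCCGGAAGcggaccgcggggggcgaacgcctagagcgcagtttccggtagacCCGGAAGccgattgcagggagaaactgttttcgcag
ZNF468, chr19:52857570-52857869, minus strand: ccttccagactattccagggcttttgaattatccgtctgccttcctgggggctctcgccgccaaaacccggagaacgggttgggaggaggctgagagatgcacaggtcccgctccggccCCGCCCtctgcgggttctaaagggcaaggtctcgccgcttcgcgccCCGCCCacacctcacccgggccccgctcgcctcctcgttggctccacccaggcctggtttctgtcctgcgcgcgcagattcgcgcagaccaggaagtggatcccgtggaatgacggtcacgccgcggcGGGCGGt
ZNF737, chr19:20565732-20566031, minus strand: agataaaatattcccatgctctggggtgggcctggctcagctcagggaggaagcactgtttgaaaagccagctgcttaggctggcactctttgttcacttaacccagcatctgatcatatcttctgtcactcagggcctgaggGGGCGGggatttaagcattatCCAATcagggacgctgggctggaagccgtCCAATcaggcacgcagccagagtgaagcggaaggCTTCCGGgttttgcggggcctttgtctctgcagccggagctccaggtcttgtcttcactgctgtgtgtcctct
ZNF91, chr19:23395422-23395721, minus strand: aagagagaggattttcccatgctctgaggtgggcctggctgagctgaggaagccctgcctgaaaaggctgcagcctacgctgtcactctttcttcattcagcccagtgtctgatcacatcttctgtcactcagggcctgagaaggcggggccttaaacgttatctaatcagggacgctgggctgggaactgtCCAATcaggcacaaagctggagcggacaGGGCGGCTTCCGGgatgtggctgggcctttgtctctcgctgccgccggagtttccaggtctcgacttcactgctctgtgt
ZNF736, chr7:64313711-64314010, plus strand: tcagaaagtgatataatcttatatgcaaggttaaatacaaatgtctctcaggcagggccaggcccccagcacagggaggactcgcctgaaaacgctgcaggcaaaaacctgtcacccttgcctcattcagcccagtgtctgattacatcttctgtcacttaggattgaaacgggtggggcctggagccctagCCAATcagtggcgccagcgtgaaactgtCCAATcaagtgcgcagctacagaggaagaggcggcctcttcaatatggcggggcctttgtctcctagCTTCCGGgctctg
ZNF784, chr19:55624517-55624816, minus strand: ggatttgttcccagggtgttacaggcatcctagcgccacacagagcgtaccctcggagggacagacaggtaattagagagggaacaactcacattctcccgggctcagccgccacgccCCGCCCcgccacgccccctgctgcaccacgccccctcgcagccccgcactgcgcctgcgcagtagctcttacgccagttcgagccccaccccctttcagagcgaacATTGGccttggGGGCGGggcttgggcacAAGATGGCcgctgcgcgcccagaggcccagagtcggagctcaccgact

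ZNF737 and ZNF91, which lie in the same cluster next to the centromere, shared 32 of 289 12-base words in these windows, the longest common run being 24 bases. ZNF736, although on another chromosome, shared 18 such words with ZNF91 and 7 with ZNF737. In the GENCODE annotation (GRCh38) the whole genes span chr19:52397849-52418412 for ZNF528, chr19:52838010-52857649 for ZNF468, chr19:20535825-20565809 for ZNF737, chr19:23304991-23395471 for ZNF91, chr7:64307459-64356634 for ZNF736 and chr19:55620741-55624566 for ZNF784. No 12-base word of ZNF528, ZNF468 or ZNF784 was found in any other of the 6 windows. Over the 211 of 241 genes with a RefSeq start region, CCGGAAG was present in 44.5% against 10.7% of 27305 start regions of all genes, GGGCGG in 69.2% against 44.6% and CCAAT in 53.1% against 35.7%. TATAAA was present in 1.9% against 12.0%. TGACGTCA (3.32% against 1.98%), AAGATGGC (6.16% against 3.03%) and GCGCATGC (3.32% against 3.27%) were rare in both. The median number of CpG dinucleotides was 20 against 14. These are matches of letters, counted on both strands and with each motif counted on its own where it overlaps another, and binding was not measured.

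Genes were tested with edgeR over all genes of a table, with Benjamini-Hochberg adjustment. A gene is written as having risen or fallen where the adjusted P was under 0.05, and as called where it was also under 1e-04 with a change of at least 2-fold. Of the 241 genes, 191 passed the filter on low counts in the table with the 3-day and 12-day libraries and 168 in the other, and 12 had no read in any of the 18 libraries.

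Transcripts of some zinc finger genes that untreated A549 cells barely transcribed appeared at 12 days of SP and, at lower levels, at 3 days. Among the 191 tested genes at 12 days, 31 were called higher and only ZNF414 was called lower, against 6.88% and 2.23% of all 17775 genes tested (16.2% and 0.524% of these genes). A gain at an adjusted P under 0.05 was seen for 88 (46.1%; background 26.4%) and a fall for 20 (10.5%; background 23.4%). At 3 days 10 were called higher and 0 lower (background 6.58% and 1.86%), 68 rose (35.6%; background 25.2%) and 25 fell (13.1%; background 23.3%). Here 102 had an unadjusted P under 0.05. DESeq2 called 17 of the 191 higher and 1 lower, beside 1396 and 378 of all 17775 genes. The median log2 fold change of the tested zinc finger genes over the 3 libraries was 0.13 to 0.24 at 3 days and 0.31 to 0.37 at 12 days. Over all genes the medians were -0.02 and 0.00, and over the other protein-coding genes of chromosome 19 they were 0.13 and 0.07. In that last set of 850 tested genes, 340 rose (40.0%), 168 fell (19.8%) and 119 were called higher at 3 days. For 12 days these numbers were 316 (37.2%), 208 (24.5%) and 104 (12.2%). Rises of zinc finger genes were thus less frequent than in that set at 3 days (35.6%) and more frequent at 12 days (46.1%). Over zinc finger genes of at least 100 reads on average the median was 0.0401 at 3 days and 0.0994 at 12 days. With the GC and length correction described further on, the median of the tested zinc finger genes was 0.0807 and 0.241. A gene silent in the controls could enter the test only by being higher with SP, so these counts and medians lean towards gains, and the counts by level that follow use all listed genes. The 10 calls at 3 days came to 6 without SP_3D replicate 3 and 20 without SP_12D replicate 3, and the 31 at 12 days to 20 without Control_3D replicate 3. ZNF414 was not called without Control_3D replicate 1 or 3 or SP_12D replicate 1, nor with a replicate block, and 2 genes were called lower without SP_12D replicate 3. At 3 days 1 was called lower without SP_12D replicate 2 or 3.

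More of the genes were detected at 3 and 12 days of SP than in Control_3D. The summed level was 2078, 2157 and 2079 CPM in Control_3D, 2107, 2110 and 2151 in SP_3D and 2256, 2329 and 2336 in SP_12D. The sums of Control_3D and SP_3D overlapped, and those of SP_12D lay above both. The number of genes at or above 1 CPM was 158, 161 and 159 in Control_3D, 174, 176 and 175 in SP_3D and 186, 184 and 183 in SP_12D, without overlap between the groups. In the other table the sum was 1955, 1910 and 1642 CPM in Control_24H, 1750, 1598 and 1767 in SP_3H and 2038, 1795 and 1738 in SP_24H, and all 3 groups overlapped.

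The highest gains were of genes with 0 to 3 reads over the 3 control libraries. ZNF528 (long arm, 15 fingers) had 0, 0 and 0 reads in Control_3D, 27, 34 and 20 in SP_3D and 81, 62 and 120 in SP_12D. All SP libraries lay above all controls, with means of 1.64 ± 0.438 and 4.51 ± 1.23 CPM (SD, n = 3). Set against a floor of 3 reads over the control group, the gain was at least 29.3-fold at 3 days (adjusted P = 3.83e-06) and at least 80.7-fold at 12 days (adjusted P = 8.15e-08). ZNF737, a gene of the cluster next to the centromere, likewise had 0 reads in each control, 14, 20 and 12 in SP_3D and 56, 74 and 93 in SP_12D, or at least 16.7-fold (adjusted P = 6.7e-06) and at least 68.4-fold (adjusted P = 2.6e-08) more. ZNF737 shares 44 exonic bases with another annotated gene. The remaining genes with no control read among those called were ZNF486, at 3, 1 and 3 reads in SP_3D and 20, 16 and 23 in SP_12D, and ZNF320, at 5, 4 and 1 and at 10, 15 and 22. Their adjusted P at 12 days was 1.16e-05 and 5.24e-05.

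ZNF736, the only gene outside chromosome 19, had 2, 0 and 1 reads in Control_3D, 22, 14 and 21 in SP_3D and 97, 130 and 149 in SP_12D. The groups did not overlap, and the ratio of read shares to the control was 20.6 at 3 days (95% counting interval 6.71 to 103) and 115 at 12 days (39.2 to 562). The adjusted P was 4.39e-06 and 1.06e-09. The gene shares 828 exonic bases with the pseudogene TRIM60P18, so part of its reads may belong there. These intervals cover counting error only.

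ZNF91, with 31 zinc fingers, is known to silence SVA retrotransposons. It had 12, 7 and 2 reads in Control_3D, 30, 16 and 28 in SP_3D and 135, 182 and 227 in SP_12D, and the groups did not overlap. Its level went from 0.377 ± 0.234 CPM to 1.49 ± 0.455 and 9.23 ± 0.771 (SD, n = 3), a log2 fold change of 1.92 ± 0.381 (SE; adjusted P = 6.09e-04) at 3 days and 4.55 ± 0.301 (adjusted P = 7.26e-09) at 12 days. In the other table it was almost absent in every group, with 4, 0 and 0 reads in Control_24H, 1, 0 and 3 in SP_3H and 0, 0 and 0 in SP_24H. Of the other genes known for their targets, ZNF93, a silencer of L1 elements, had a single read in the series and was not tested. ZNF649, which binds L1 sequence, had 2, 2 and 3 reads in Control_3D, 18, 10 and 14 in SP_3D and 30, 54 and 38 in SP_12D, or log2 differences of 2.64 ± 0.486 (adjusted P = 3.31e-04) and 3.93 ± 0.416 (adjusted P = 1.3e-06). ZNF765, another L1 binder, differed by 0.23 ± 0.107 at 3 days (adjusted P = 0.0928) and rose by 0.42 ± 0.106 at 12 days (adjusted P = 0.00348). ZNF568, whose mouse counterpart represses a placental Igf2 transcript, rose at 12 days alone of the 4 comparisons with controls (0.90 ± 0.199, adjusted P = 0.00149); it shares 3246 exonic bases with another gene. ZNF274, which guides SETDB1 to the 3′ ends of zinc finger genes, was well expressed and rose from 437, 378 and 402 reads to 523, 471 and 548 at 3 days and 571, 799 and 824 at 12 days (0.45 ± 0.0951, adjusted P = 0.001, and 0.72 ± 0.0941, adjusted P = 1.17e-05).

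**Figure D1:**
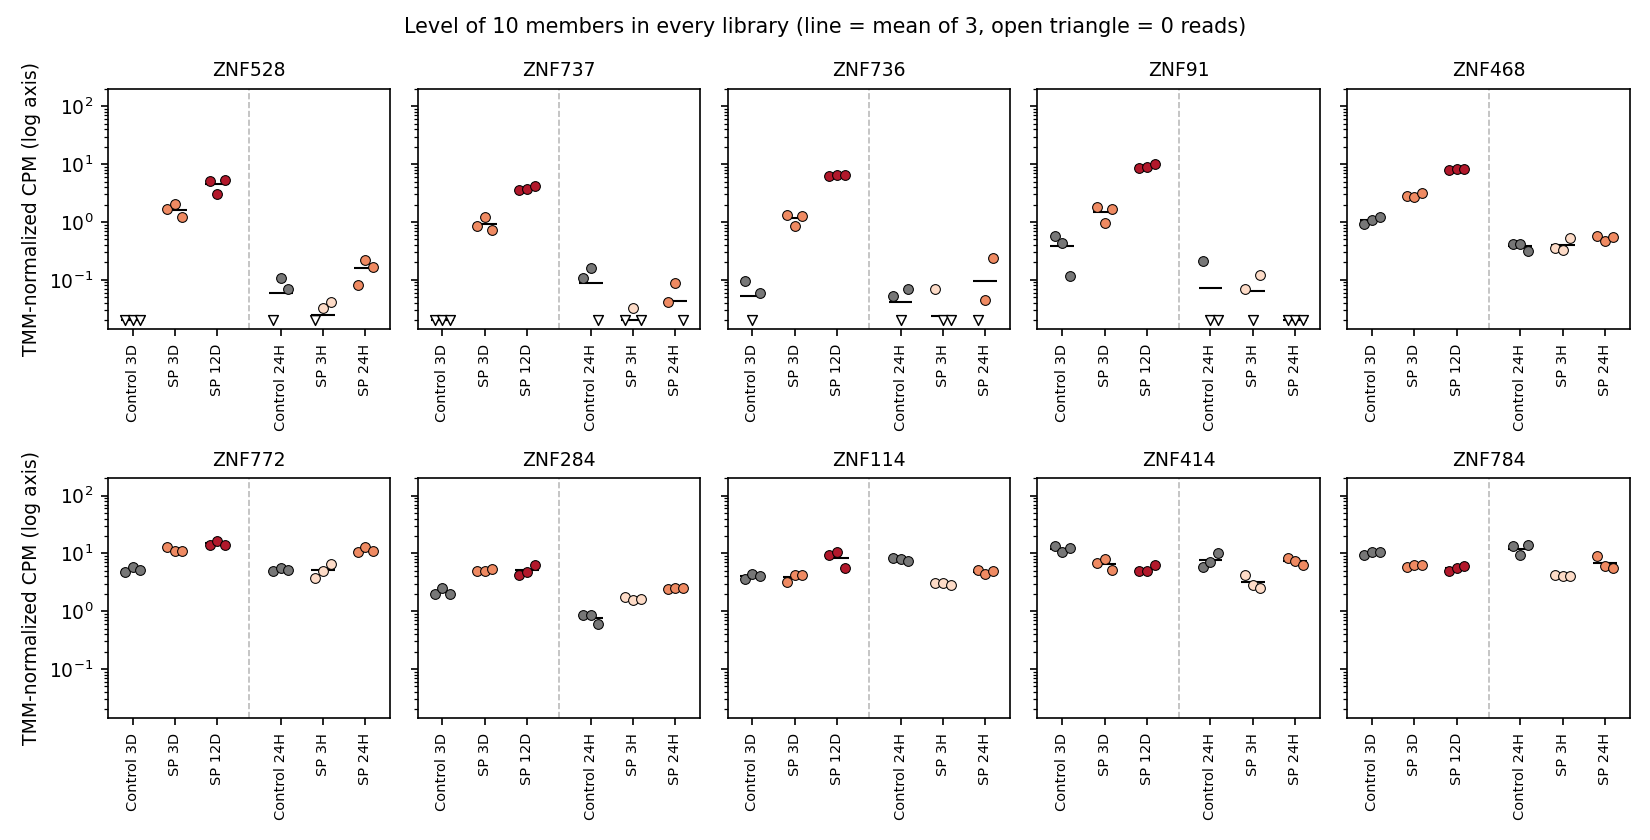
Level of 10 zinc finger genes in each of the 18 libraries, as TMM-normalized CPM on a log axis; points are libraries, the line is the mean of 3, open triangles are libraries with 0 reads, and the dashed line separates the tables. ZNF528 and ZNF737 sit at 0 in all 3 Control_3D libraries and at 1.64 and 0.930 CPM on average in SP_3D, while ZNF414 and ZNF784 lie lower in SP_3D and SP_12D than in Control_3D.

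Along chromosome 19 the genes fall into 16 stretches in which neighbours lie within 1000000 bases of each other, numbered here from the tip of the short arm. The gains were most frequent in stretch 15 (chr19, 51.57 to 53.58 Mb, 39 genes), which supplied 16 of the 31 calls at 12 days. Of its 31 tested genes, 24 rose at 12 days and 1 fell, with a median log2 fold change of 1.17, and 20 rose and 1 fell at 3 days, with a median of 0.93. Of these tested genes 9 were under 0.1 CPM in Control_24H, and over the 15 genes of the stretch at or above 1 CPM in Control_24H the medians were 0.40 and 0.19. The 8 untested genes there (ZNF610, ZNF534, ZNF578, ZNF888, ZNF415, ZNF347, ZNF665 and ZNF677) stayed near silence, 6 of them with at most 20 reads over all 18 libraries. Of 11 other genes tested within the stretch, 1 rose and 2 fell at 12 days, with a median of -0.15. The gene that rose, named after its value was seen, was ZNF528-AS1, the antisense neighbour of ZNF528, at 0.0159 CPM in Control_3D, 0.142 in SP_3D and 0.874 in SP_12D on average (adjusted P = 2.52e-05 at 12 days); those that fell were SPACA6 and SPACA6-AS1. At 3 days 5 genes of the stretch were called, 3 without SP_3D replicate 3 and 11 without SP_12D replicate 3, and at 12 days 11 to 16 were called when single libraries were left out. DESeq2 called 9 there at 3 days, the test without the filter 12, the 2-group fit 8 and the GC and length correction with the replicate block 2.

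The named genes of stretch 15 in order of position were as follows. ZNF841 had 110, 89 and 104 reads in Control_3D, 168, 171 and 219 in SP_3D and 249, 310 and 354 in SP_12D (0.99 ± 0.132, adjusted P = 1.52e-05, and 1.47 ± 0.129, adjusted P = 1.66e-07). ZNF880 went from 8, 2 and 0 reads to 29, 22 and 23 and then 54, 83 and 61 (2.97 ± 0.504 and 4.16 ± 0.445). ZNF83, which like ZNF345 was called at 12 days although it lacks KRAB letters, went from 1, 3 and 3 reads to 11, 19 and 14 and then 35, 38 and 62 (2.70 ± 0.489 and 4.06 ± 0.417). In each of these genes every SP library lay above every control. ZNF600 had 4, 2 and 1 reads in Control_3D, 19, 21 and 21 in SP_3D and 54, 60 and 73 in SP_12D (3.18 ± 0.391, adjusted P = 6.8e-06, and 4.56 ± 0.336, adjusted P = 2.4e-08). The neighbours ZNF28 and ZNF468 overlap on the same strand and share 29 exonic bases: ZNF28 went from 34, 22 and 12 reads to 50, 66 and 51 and then 154, 180 and 202, and ZNF468 from 19, 17 and 21 to 46, 45 and 54 and then 125, 166 and 187. Their log2 fold changes at 12 days were 2.87 ± 0.222 (adjusted P = 4.02e-08) and 2.93 ± 0.182 (adjusted P = 3.52e-09), and neither gene overlapped between its groups. ZNF816 rose from 3, 0 and 1 reads to 12, 11 and 17 at 3 days and 32, 47 and 51 at 12 days, and ZNF701 from 0, 3 and 7 to 22, 19 and 22 and then 33, 35 and 59, although they share 312 and 857 exonic bases with other genes. ZNF525 and ZNF813, close to the end of the stretch, had reached most of their gain by 3 days: ZNF813 had 14, 8 and 15 reads in Control_3D, 63, 59 and 54 in SP_3D and 67, 70 and 79 in SP_12D (2.36 ± 0.243 and 2.43 ± 0.239). The exception at the end of the stretch was ZNF331, an imprinted gene silenced in some tumours, which fell from 533, 377 and 407 reads to 255, 207 and 260 at 3 days (-0.74 ± 0.125, adjusted P = 1.44e-04) and 259, 367 and 300 at 12 days (-0.61 ± 0.123). ZNF350, a partner of BRCA1, rose by 0.66 ± 0.144 and 0.46 ± 0.144 (adjusted P = 0.00133 and 0.0147; the latter 0.0614 without Control_3D replicate 2 and 0.08 without SP_12D replicate 1).

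**Figure D2:**
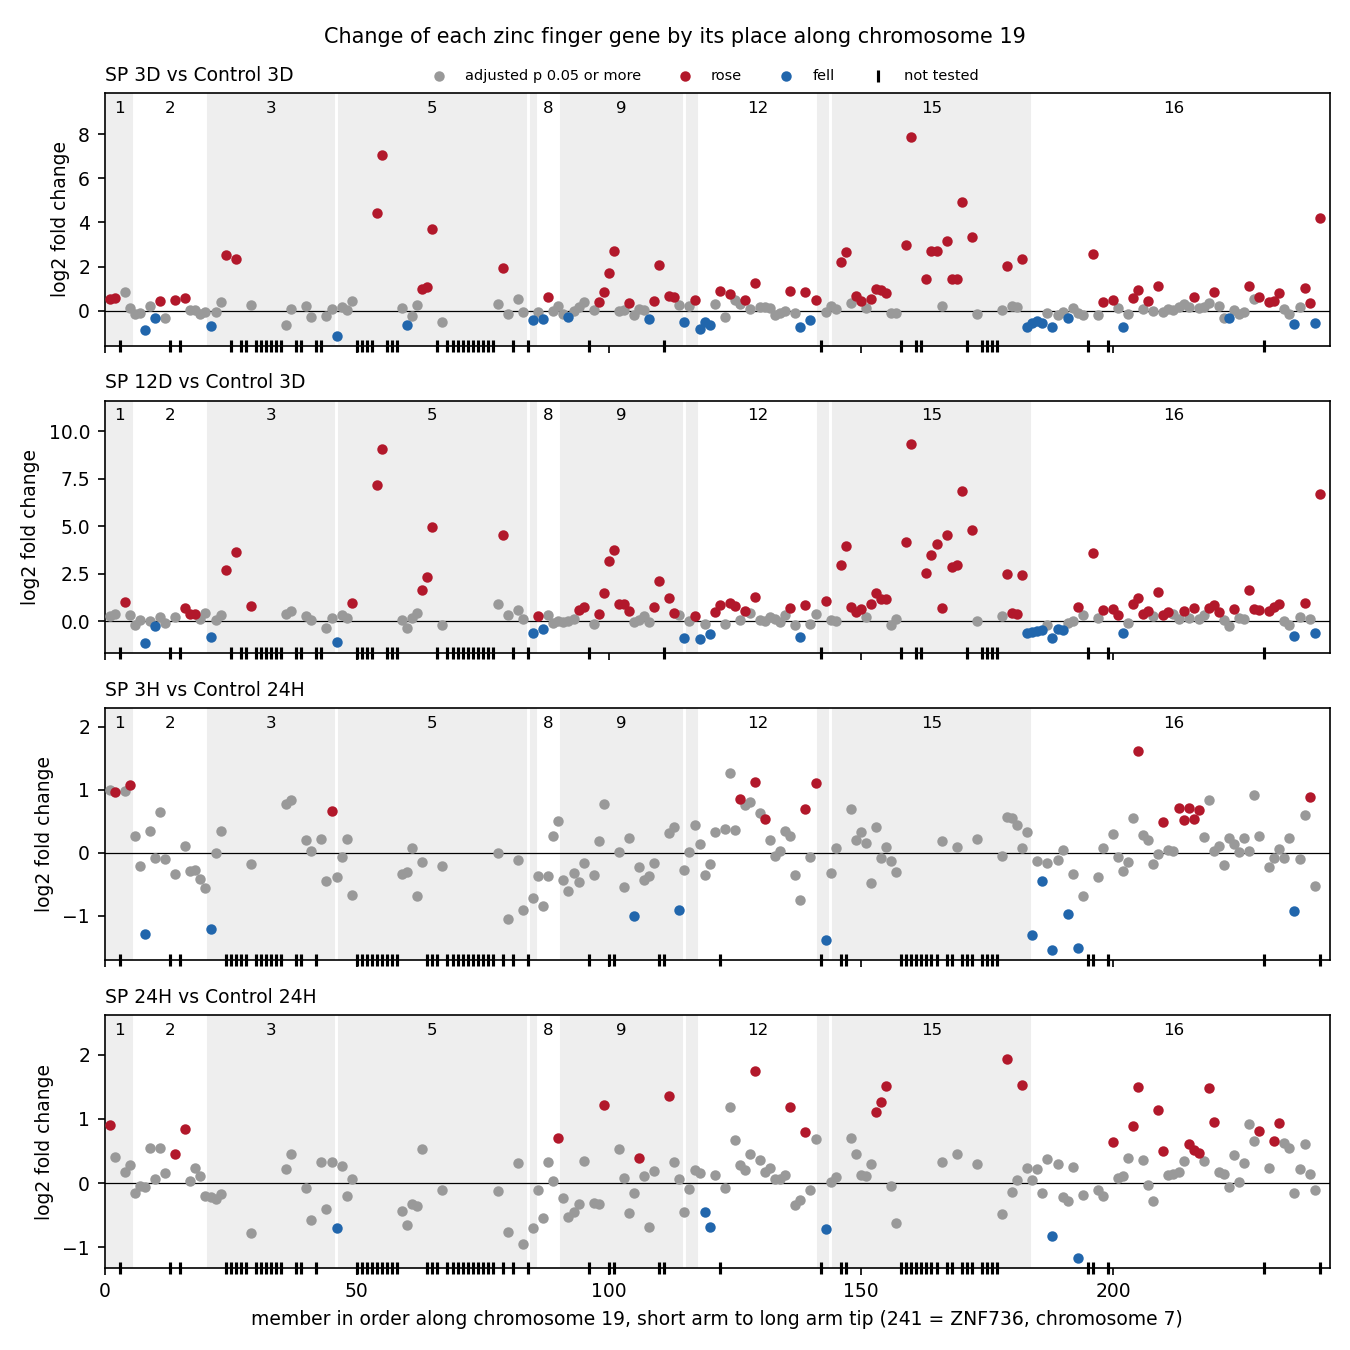
log2 fold change of each tested gene against its order along chromosome 19, short arm to the tip of the long arm, in the 4 comparisons with controls; red genes rose and blue genes fell at an adjusted P under 0.05, grey genes did not pass, and ticks mark genes that were not tested. Shading and numbers mark the stretches, and in stretch 15 all but a few points at 12 days lie above 0, with 24 red and 1 blue; fitted values of genes without a control read (ZNF528, ZNF737, ZNF486 and ZNF320) depend on the prior count.

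The other large clusters followed in part. In stretch 5 (chr19, 19.67 to 24.13 Mb, 37 genes next to the centromere), 14 genes had at most 20 reads in the series and 18 were tested. Of these, 6 were called at 12 days and 7 rose (ZNF486, ZNF737, ZNF738, ZNF493, ZNF429 and ZNF91 were called), with 6 rising and 1 falling at 3 days. In stretch 9 (36.18 to 37.82 Mb, 24 genes), 13 of 22 tested rose and 0 fell at 12 days, and 9 rose and 2 fell at 3 days. Its calls were ZNF850, which went from 58, 54 and 42 reads to 131, 186 and 156 at 12 days (1.50 ± 0.185, adjusted P = 6.38e-06), ZNF790 and ZNF345. In stretch 3 (11.48 to 12.64 Mb, 25 genes), 12 were tested, 3 rose and 1 fell at 12 days, with a call for ZNF440 alone. In stretch 2 (7.07 to 9.79 Mb), 3 rose and 2 fell at either time. In stretch 12 (43.53 to 45.08 Mb, 24 genes, all tested), 8 rose and 3 fell at 12 days and 7 rose and 5 fell at 3 days, with ZNF284 the only call. ZNF284 shares 1908 exonic bases and 44% of its 50-base words with other sequence, so its reads cannot be assigned with certainty.

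Stretch 16, at the tip of the long arm (55.48 to 58.48 Mb, 57 genes), was divided. Its first 9 genes (ZNF628, ZNF579, ZNF524, ZNF865, ZNF784, ZNF580, ZNF581, ZNF787 and ZNF444), a run chosen after the values were seen, carry no KRAB letters and have transcripts of 61.8% to 70.9% GC; 0 of them rose, 5 fell at 3 days and 6 at 12 days. Of the 45 tested among the remaining 48, 16 rose and 4 fell at 3 days and 25 rose and 3 fell at 12 days. In the run, ZNF784 went from 197, 170 and 180 reads in Control_3D to 94, 102 and 106 in SP_3D and 78, 110 and 138 in SP_12D (-0.74 ± 0.134, adjusted P = 2.67e-04, and -0.88 ± 0.133, adjusted P = 4.96e-05). All its SP libraries lay below all its controls. Among the rest, ZNF772 went from 100, 93 and 87 reads to 209, 181 and 182 and then 225, 331 and 312, or log2 differences of 1.14 ± 0.135 (adjusted P = 4.46e-06) and 1.51 ± 0.132 (adjusted P = 1.63e-07). It shares 426 exonic bases with another gene.

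The level in untreated cells of the other table, which did not enter these tests, separated the genes. Of the 68 genes below 0.1 CPM in Control_24H, 19 were called higher at 12 days (27.9%) and 4 at 3 days (5.88%), against 1.52% and 1.43% of 5651 other protein-coding genes at that level. Of the 24 genes at 0.1 to 1 CPM, 19 rose at 12 days (79.2%) against 30.1% of other coding genes. Among the 149 genes at or above 1 CPM the share that rose at 3 days was near that of other coding genes, with 34 rising (22.8% against 25.5%) and 25 falling (16.8% against 28.2%). At 12 days 49 rose (32.9% against 27.3%) and 20 fell (13.4% against 27.5%). Fewer of these 149 genes were called higher than of other coding genes, at 1.34% against 6.17% at 3 days and 2.68% against 6.26% at 12 days. Of the 15 genes of stretch 15 at this level 8 rose and 1 fell at 12 days, against 41 and 19 of 134 elsewhere (53.3% against 30.6% rose), a difference that was not tested.

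**Figure D3:**
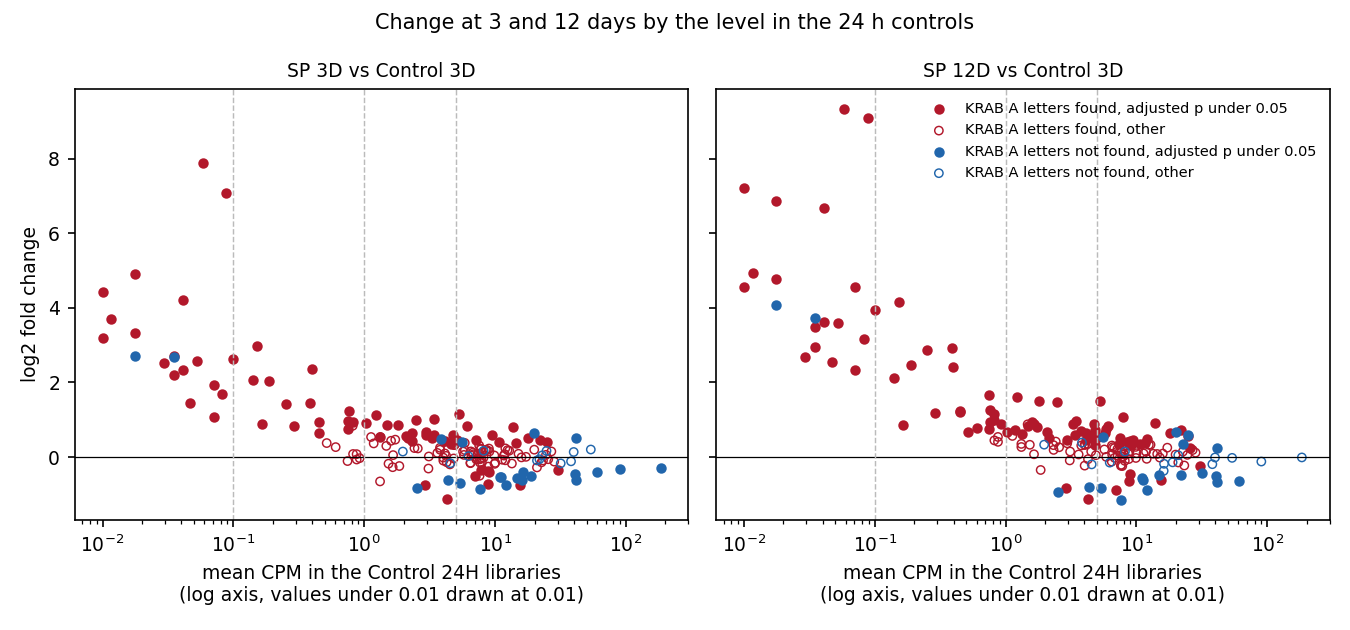
log2 fold change at 3 and 12 days against the mean CPM in the 3 Control_24H libraries on a log axis, with values under 0.01 drawn at 0.01 and dashed lines at 0.1, 1 and 5 CPM. Filled points passed an adjusted P of 0.05; red genes carry KRAB A letters and blue genes do not, and only the 20 of 68 genes below 0.1 CPM that passed the filter on low counts are drawn.

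The counts differed between genes with and without KRAB letters, although the difference itself was not tested. Among the 117 genes with KRAB letters at or above 1 CPM in Control_24H, 44 rose and 7 fell at 12 days (37.6% and 5.98%). Among the 32 without them, 5 rose and 13 fell (15.6% and 40.6%). Of 201 ZNF genes of other chromosomes at that level 11.9% rose and 29.4% fell, and of other coding genes 27.3% and 27.5%. The KRAB group also differs in base composition, with a median transcript GC of 42.1% against 62.1%. A correction for GC content and length moved the median of all genes from -0.02 to -0.12 at 3 days. At 12 days it moved that median from 0.00 to -0.10. With it 61 of the 191 tested zinc finger genes rose and 36 fell at 3 days, and 8 were called in each direction. Over all 17775 genes 3816 rose and 5952 fell, with 852 and 579 calls. At 12 days 80 of the 191 rose and 31 fell, with 27 and 6 calls. Over all genes 4068 rose and 5749 fell, with 959 and 586 calls. All 8 lower calls at 3 days were of genes without KRAB letters.

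The genes that fell at 3 and 12 days included ZNF414, which was called at 12 days. ZNF414 (short arm, 3 fingers) had 276, 171 and 212 reads in Control_3D, 113, 130 and 87 in SP_3D and 79, 100 and 141 in SP_12D, without overlap between control and SP (-0.87 ± 0.16, adjusted P = 3.35e-04, and -1.16 ± 0.161, adjusted P = 2.15e-05). ZNF333 went from 159, 144 and 124 reads to 49, 58 and 74 and then 48, 57 and 112 (-1.13 ± 0.211 and -1.12 ± 0.207); it shares 1367 exonic bases with ADGRE2 and ADGRE3. ZNF575 fell by 0.84 and 0.93 on the log2 scale, ZNF285 by 0.75 and 0.82, ZNF653 by 0.70 and 0.82 and ZNF837 by 0.60 and 0.80, all with an SE under 0.2. ZNF460 fell by 0.72 ± 0.126 at 3 days and ZNF546 by 0.88 ± 0.12 at 12 days. In each of these genes the SP libraries lay below the controls.

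The most abundant of the genes per length, ZNF146, a protein made up of zinc fingers alone, was at 36.1 ± 4.54 RPKM in Control_3D, 29.5 ± 1.90 in SP_3D and 35.9 ± 3.61 in SP_12D (SD, n = 3; reads per kilobase of exon and 1000000 counted reads). Its fall at 3 days (-0.29 ± 0.101, adjusted P = 0.0258) did not pass without Control_3D replicate 1 or 2 or without SP_3D replicate 2 or 3 (adjusted P 0.0584 to 0.127). ZNF428 was next at 33.1 ± 1.31, 21.4 ± 2.07 and 21.0 ± 1.13 RPKM, and fell in both comparisons (-0.63 ± 0.0913, adjusted P = 3.61e-05, and -0.66 ± 0.0909, adjusted P = 2.08e-05); it shares 498 exonic bases with SRRM5. The levels of the first 2 did not differ beyond their spread in Control_3D.

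Between the SP times, SP_12D against SP_3D, 3 genes were called higher and 0 lower, against 0.152% and 0.0281% of all genes; 27 rose (14.1%; background 4.46%) and 1 fell (background 3.65%). Here 69 had an unadjusted P under 0.05 and DESeq2 called 5 in all. The 3 were ZNF91 (2.62 ± 0.244, adjusted P = 1.22e-05), ZNF736 (2.47 ± 0.227, adjusted P = 1.22e-05) and ZNF468 (1.48 ± 0.158, adjusted P = 5.19e-05). With a replicate block, or without any SP_3D library, 0 were called, and 6 were called without SP_12D replicate 3.

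In SP_24H against Control_24H, none of the 168 tested genes was called (edgeR; background 0.622% higher and 0.0633% lower). Of these genes 53 had an unadjusted P under 0.05. DESeq2 called 4 of them higher and 0 lower, beside 997 and 195 of all 17377 genes. At an adjusted P under 0.05, 28 rose (16.7%), which is the share of all genes (16.8%). That share was below the 36.2% of 835 other tested protein-coding genes of chromosome 19. Falls numbered 6 (3.57%; background 12.0%). The count of rises came to 14 without SP_24H replicate 2, and that of falls to 3 without Control_24H replicate 1, 12 without Control_24H replicate 3 and 2 without SP_24H replicate 2 or 3. The same-numbered libraries of Control_24H and SP_24H deviate together, and with the replicate block 26 rose and 6 fell. With the GC and length correction 32 rose and 24 fell, 19 of the falls being of genes without KRAB letters. Under it 2491 of all 17377 genes rose and 4385 fell, and the median of all genes went from -0.01 to -0.13.

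ZNF284, which had the lowest adjusted P among those named at 24 h, went from 16, 16 and 17 reads in Control_24H to 61, 112 and 76 in SP_24H (1.74 ± 0.202, adjusted P = 3.76e-04). ZNF772 had 94, 105 and 149 reads in Control_24H, 53, 154 and 162 in SP_3H and 265, 577 and 321 in SP_24H (-0.03 ± 0.2 at 3 h, adjusted P = 0.963, and 1.13 ± 0.196 at 24 h, adjusted P = 0.00276). ZNF841 had 40, 60 and 60, 45, 95 and 85, and 123, 271 and 141 reads in the same groups (24 h: 1.11 ± 0.199, adjusted P = 0.00338). All SP_24H libraries of these genes lay above all controls. ZNF850 (1.22 ± 0.239, adjusted P = 0.00518), ZNF547 (1.50 ± 0.332, adjusted P = 0.00934), ZNF671 (0.95 ± 0.205, adjusted P = 0.00812) and ZNF274 (0.65 ± 0.116, adjusted P = 0.00323) rose as well. In SP_24H replicate 2 ZNF813 had 65 reads and in replicates 1 and 3 34 and 17, beside 6, 10 and 10 in the controls; its adjusted P of 0.029 became 0.0587 with the replicate block, 0.121 without that library and 0.0606 to 0.0917 without Control_24H replicate 1 or 3 or SP_24H replicate 1. ZNF525, ZNF571, ZNF616 and ZNF836 passed with all libraries (adjusted P 0.0322 to 0.0494), and each missed the threshold without SP_24H replicate 2 and without at least 3 other libraries (0.0501 to 0.158). With the replicate block ZNF616 and ZNF836 also missed it (0.0637 and 0.0557).

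Of the 31 genes called at 12 days, 20 had at most 10 reads over the 3 Control_24H libraries and 10 were tested in that table. Of those 10, 7 rose at 24 h (ZNF850, ZNF284, ZNF841, ZNF616, ZNF525, ZNF813 and ZNF772), and 1, ZNF284, rose at 3 h. ZNF528 was at 0, 2 and 2 reads in Control_24H and 2, 10 and 5 in SP_24H, and ZNF736 at 1, 0 and 2 and at 0, 2 and 7, with overlapping groups and too few reads for the test. In stretch 15, 5 of 20 tested genes rose at 24 h and 0 fell, with a median of 0.30, but 1 to 3 rose without Control_24H replicate 1 or 3, SP_3H replicate 1 or any of the SP_24H libraries, 2 with the replicate block or in the 2-group fit, and 8 with the GC and length correction. In stretch 16, 13 rose and 2 fell.

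The falls at 24 h were of ZNF114, ZNF784, ZNF333, ZNF428, ZNF576 and ZNF582. ZNF114 had 155, 149 and 213 reads in Control_24H, 44, 94 and 70 in SP_3H and 126, 194 and 147 in SP_24H. Its log2 fold change was -1.39 ± 0.14 at 3 h (adjusted P = 8.28e-04) and -0.71 ± 0.133 at 24 h (adjusted P = 0.00415), and relative to sequencing depth both groups lay below the controls. In the other table it was at 75, 69 and 70 reads in Control_3D, 52, 69 and 72 in SP_3D and 150, 210 and 125 in SP_12D, higher at 12 days (1.08 ± 0.217, adjusted P = 7.02e-04). The falls of ZNF784 (-0.82 ± 0.217, adjusted P = 0.0204) and ZNF333 (-0.69 ± 0.218, adjusted P = 0.0397) missed the threshold without SP_24H replicate 2 (0.0888 and 0.0962) and without replicate 3 (0.0807 and 0.0775). ZNF784 also missed it without Control_24H replicate 1 (0.0548), ZNF333 without Control_24H replicate 3 (0.11), SP_24H replicate 1 (0.107) and SP_3H replicates 1 and 2 (0.0587 and 0.0525). ZNF576 (-0.45 ± 0.125, adjusted P = 0.0242) missed it without SP_24H replicates 2 and 3 (0.1 and 0.0731) and Control_24H replicate 1 (0.0614).

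At 3 h changes of both directions were few. Of 168 tested genes 0 were called (edgeR; background 0.0% in either direction), and 58 had an unadjusted P under 0.05. DESeq2 called 0 of the 168 higher and 5 lower, beside 297 and 118 of all 17377 genes. At an adjusted P under 0.05, 16 rose (9.52%; background 7.39%) and 11 fell (6.55%; background 4.11%). With the GC and length correction these counts were 22 and 22, beside 1487 and 1679 of all 17377 genes. Without SP_3H replicate 2, 10 rose and 5 fell; 10 rose without Control_24H replicate 1, and 7 fell without Control_24H replicate 2 or SP_24H replicate 3. By libraries the median log2 difference from the controls was 0.06, -0.07 and 0.17. The rises included ZNF547 (from 5, 8 and 19 reads to 16, 49 and 38; 1.61 ± 0.338, adjusted P = 0.0151), ZNF284 (1.12 ± 0.212, adjusted P = 0.00922), ZNF77 (1.08 ± 0.208, adjusted P = 0.00993), ZNF324 (0.89 ± 0.126, adjusted P = 0.00272) and ZNF230 (0.85 ± 0.157, adjusted P = 0.00848). ZNF77 and ZNF555 neighbour each other near the tip of the short arm, and ZNF284 and ZNF230 lie in stretch 12, where 5 genes rose and 0 fell. ZNF547, ZNF550 and ZNF296 missed the threshold without SP_3H replicate 2 (0.0632 to 0.0636), and ZNF555 (0.96 ± 0.206, adjusted P = 0.0163) without Control_24H replicate 1 (0.0542). ZNF550 and ZNF296 did so also without Control_24H replicate 1 (0.0522 and 0.058), ZNF547 and ZNF296 without Control_24H replicate 2 (0.0544 and 0.0617), and ZNF296 without SP_3H replicate 1 (0.0603).

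The largest fall at 3 h among the tested genes named here was of ZNF784, from 251, 176 and 394 reads in Control_24H to 61, 126 and 99 (-1.55 ± 0.227, adjusted P = 0.00316), and the groups did not overlap. ZNF653 (-1.22 ± 0.169, adjusted P = 0.00254), ZNF383 (-1.0 ± 0.139, adjusted P = 0.00254) and ZNF787 (-0.97 ± 0.155, adjusted P = 0.00449) fell too. ZNF414 (-1.30 ± 0.263, adjusted P = 0.0127) missed the threshold without SP_3H replicate 2 (0.0613), as did ZNF628 (-1.31 ± 0.301, adjusted P = 0.0217; 0.0798 without that library, 0.0545 without replicate 3). In the run at the start of stretch 16, 4 of 9 fell at 3 h and 1 at 24 h.

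Between SP_24H and SP_3H, 0 genes were called (edgeR; background 0.0288% higher and 0.0% lower), 56 had an unadjusted P under 0.05, and DESeq2 called 2. At an adjusted P under 0.05, 26 were higher at 24 h (15.5%; background 11.7%) and 6 lower (3.57%; background 8.4%).

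The 7 genes listed as often methylated at their promoters in tumours (ZNF132, ZNF671, ZNF154, ZNF582, ZNF677, ZNF382 and ZNF331, described above) gave mixed values. ZNF132 was called higher at 3 days (1.02 ± 0.152, adjusted P = 4.69e-05), from 64, 50 and 50 reads to 99, 96 and 112, and rose at 12 days (0.97 ± 0.151, adjusted P = 6.48e-05). ZNF671 rose at both times (0.87 ± 0.172 and 0.82 ± 0.17). ZNF154 differed by 0.37 ± 0.25 at 3 days (adjusted P = 0.232), and its values of 0.67 ± 0.238 at 12 days (adjusted P = 0.0291) and 1.48 ± 0.403 at 24 h (adjusted P = 0.0225) missed the threshold without several of the libraries (up to 0.13 and 0.098), the latter also with the replicate block (0.0523). With that block ZNF132 passed at 24 h (adjusted P = 0.0445, against 0.0636 without it). ZNF582 was higher at 12 days (0.74 ± 0.273, adjusted P = 0.033) and lower at 3 h and 24 h (adjusted P = 0.0442 and 0.044), and each missed the threshold without most of the libraries in turn (up to 0.12, 0.134 and 0.152). ZNF677 had 2 reads in the series and ZNF382 between 0 and 11 reads per library, and neither was tested. Methylation was not measured here.

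Genes of the corepressor complexes through which KRAB proteins act, and of related chromatin regulators, were measured in the same libraries. The 37 genes were TRIM28 and its relatives, the SETDB1, HP1, HUSH and NuRD components and the DNA and H3K9 methyltransferases. They also took in UHRF1, ATRX, DAXX, SMARCAD1 and the H3K9 demethylases KDM4A, KDM4B and KDM4C. Of the 37, 4 rose and 11 fell at 3 days (10.8% and 29.7%). At 12 days 5 rose and 13 fell (13.5% and 35.1%; background as above). At either time 2 were called lower, CHD3 and SUV39H1 (5.41%, against 1.86% of all genes at 3 days and 2.23% at 12 days). At 3 h 3 rose and 4 fell (8.11% and 10.8%, against 7.39% and 4.11% of all genes). At 24 h 2 rose and 4 fell (5.41% and 10.8%, against 16.8% and 12.0%). TRIM28 went from 607.7 ± 64.6 CPM in Control_3D to 509.7 ± 10.3 in SP_3D and 469.1 ± 49.5 in SP_12D (-0.25 ± 0.0956, adjusted P = 0.0385, and -0.37 ± 0.0957, adjusted P = 0.0042). SETDB1, the H3K9 methyltransferase of the complex, went from 57.9 ± 5.05 to 39.1 ± 2.11 and 32.7 ± 1.95 CPM (-0.57 ± 0.0903, adjusted P = 9e-05, and -0.82 ± 0.0906, adjusted P = 1.94e-06). CHD3, a NuRD remodeller, went from 527.9 ± 32.3 to 190.2 ± 10.6 and 180.7 ± 12.9 CPM (-1.47 ± 0.0848 and -1.55 ± 0.0849), and SUV39H1 fell by 1.26 ± 0.168 and 1.24 ± 0.166 on the log2 scale. The rises at 3 days were of CBX1 (0.38 ± 0.0853, adjusted P = 0.00159), CHD4 (0.37 ± 0.0942, adjusted P = 0.00388), DNMT3B (0.54 ± 0.121, adjusted P = 0.00159) and KDM4B (0.58 ± 0.0921, adjusted P = 9.01e-05). At 12 days CBX1, DNMT3B, KDM4B, HDAC2 and GATAD2A rose. At 24 h CHD3 (-0.71 ± 0.125, adjusted P = 0.00315), SUV39H1 (-0.70 ± 0.163, adjusted P = 0.0114) and MBD3 (-0.78 ± 0.121, adjusted P = 0.00157) fell. DNMT3B (1.09 ± 0.162, adjusted P = 0.00127) and ATF7IP (0.55 ± 0.128, adjusted P = 0.0116) rose at 24 h. SETDB1 fell at 3 h (-0.63 ± 0.149, adjusted P = 0.0251) but not at 24 h (0.11 ± 0.147, adjusted P = 0.581). Whether these changes bear on the zinc finger genes was not tested.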

How the data were processed

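Members were chosen, and all gene lists and thresholds set, with earlier results of these data known. Per the labels and the study's methods, the authors prepared libraries with a kit that does not mark strand (NEBNext Ultra), sequenced paired ends, aligned to GRCh38 with STAR 2.7.9a and counted with featureCounts (versions from the submitters' processing notes, which also name FastQC, R 4.2.1 and DESeq2 1.36.0). The authors deposited raw counts per Ensembl gene in 2 tables of 9 libraries; strand and multi-mapping settings are not given in the sources used here, so reads of overlapping, antisense or near-identical genes cannot be told apart.

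Each table was fitted on its own in edgeR 4.0.16 (R 4.3.3, limma 3.58.1; robust quasi-likelihood, TMM, filterByExpr with a minimum count of 10, all 9 libraries), tested first on simulated counts. Benjamini-Hochberg adjustment took in the 17775 and 17377 genes tested. CPM are TMM-normalized, and medians by library used a pseudocount of 0.1 CPM. Library sizes were 15425281 to 21992046 in the first table and 14187401 to 43765330 in the second; genes with few reads are measured imprecisely. Named genes were, in each comparison with a control, the 8 largest rises and 8 largest falls past an adjusted P of 0.05 with at least 20 mean reads in either group and no overlap between SP and control libraries, the 5 highest levels per length in each control group, ZNF736, genes called between SP times and genes of known role; other names, such as ZNF841, ZNF772 and ZNF28, came from the calls at 12 days or the stretches after their values were seen. Zinc fingers (C2H2 pattern), KRAB A letters and shared 50-base words came from GENCODE v44 coding and transcript sequences, not RefSeq proteins as planned. Same-numbered libraries of Control_24H and SP_24H deviated together (correlations 0.499, 0.17 and 0.504), and may be paired. No other pair of groups had all its correlations above 0.1 (-0.592 to 0.377). The main fit used the group alone and left this pairing out. P values at 24 h come from that fit unless the replicate block is named. Alternatives were DESeq2 1.42.0, RLE, no filter, 2-group fits, the replicate block, a GC and length correction, other thresholds and leaving out each library.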

Additional observations from a re-analysis of the deposited data

Results flagged for a closer look

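The effects of SP at 12 and at 3 days, measured against the same Control_3D libraries, differed for 3 of the genes by the direct test of SP_12D against SP_3D (edgeR, Benjamini-Hochberg over all genes): ZNF91 with a log2 difference of 2.62, ZNF736 with 2.47 and ZNF468 with 1.48, each higher in all 3 libraries at 12 days. Control libraries of 12 days were not analysed here, and the days in culture cannot be told apart from SP in these differences. None of the 3 was called with the replicate block. Only 1 of the 3 has at most 10% of its 50-base words in other genes, so reads of the others may be shared.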

How the results depend on the processing

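Of 3068 values for named genes under alternatives, 2781 kept their direction and their side of an adjusted P of 0.05, 72 changed sign without passing in either fit, 157 no longer passed, 48 newly passed and 10 reversed. The reversals all came under the GC content and length correction, without and then with the replicate block: ZNF296 at 3 days (-0.0268 and -0.0231), and at 24 h ZNF324 (-0.385 and -0.382), ZNF628 (-0.856 and -0.859), ZNF580 (-0.405 and -0.413) and ZNF579 (-0.511 and -0.518), where the 24 h values passed only with the correction. The cause was not tested for any of the changes that follow. At 12 days the genes called higher came to 20 with the GC correction and block, and those called lower to 2 with DESeq2, 2 without the filter, 2 at an adjusted P under 0.05 with 2-fold, 6 with the GC correction, 6 with it and the block, and 0 with the block alone; the falls came to 31 with the GC correction and 32 with it and the block. At 3 days 17 were called higher with DESeq2, 21 without the filter, 30 at the looser threshold and 4 with the GC correction and block; lower calls came to 8 with the GC correction, 6 with it and the block, and 1 with DESeq2, without the filter, in the 2-group fit and at the looser threshold. The median log2 fold change at 12 days was 0.43 without the filter, 0.24 with the GC correction, 0.23 with it and the block and 0.10 over genes of at least 100 reads; at 3 days it was 0.0807, 0.0783 and 0.0401 under the last 3. Between SP times at 12 and 3 days 5 were called with DESeq2, 9 without the filter, 20 at the looser threshold, and 0 in the 2-group fit, with the block and with the GC correction and block. At 24 h higher calls came to 4 with DESeq2, 2 without the filter, 1 with the GC correction and 12 at the looser threshold, lower calls to 1 with the GC correction, 1 with it and the block and 1 at the looser threshold, and falls to 24 and 25 with the GC correction without and with the block; between SP_24H and SP_3H 2 were called with DESeq2, 2 without the filter, 1 with the GC correction and 6 at the looser threshold. At 3 h rises came to 6 in the 2-group fit; falls came to 17 with DESeq2, 6 in the 2-group fit, 7 with the block, 22 with the GC correction and 24 with it and the block; 4 were called higher at the looser threshold, and 5, 3 and 7 lower with DESeq2, without the filter and at the looser threshold.

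When single libraries were left out, the genes called higher numbered 20 to 33 at 12 days and 6 to 20 at 3 days, those called lower 0 to 2 and 0 to 1, rises 74 to 87 and 54 to 74, and falls 19 to 22 and 20 to 28. At 24 h rises numbered 14 to 29 and falls 2 to 12, and at 3 h 10 to 16 and 5 to 12, with 0 to 0 calls in both. SP_12D against SP_3D gave 0 to 6 calls and SP_24H against SP_3H 0 to 0. The medians ranged over 0.30 to 0.38 at 12 days, 0.16 to 0.22 at 3 days, 0.10 to 0.22 at 24 h and -0.05 to 0.10 at 3 h. Depth and overlap limit the 31 genes called higher at 12 days: 16 had at most 10 reads over the 3-day controls, and 21 share exonic bases with another gene. Also 9 of the 31 have over 10% of their 50-base words in other genes. Of the 137 tested genes without such sharing, 22 were called higher at 12 days (16.1%) and 5 at 3 days (3.65%, against 6.58% of all genes).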
